A study of Mus musculus with 6 samples.

Results

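Genes of one-carbon metabolism, serine synthesis and nucleotide synthesis were examined in RNA sequencing of LSK cells from mouse bone marrow. This gate takes cells that lack lineage markers and carry high Sca-1 and c-kit, and it contains the stem cells of blood together with their early progeny. The members were taken by name from a fixed list of 32 gene symbols, of which 31 were found among the 16022 symbols of the count table. Ctps1, the remaining symbol, is another name of the gene that the table gives as Ctps, so no gene is missing. The libraries fell into 2 groups of 3, HDAC6 knockout (KO) and wild type (WT), and the design holds this single comparison. HDAC6 is a mainly cytoplasmic deacetylase, and the series asks how it acts through the metabolic enzyme IDH1 on these cells. The labels give the genotypes as KO and WT and the tissue as bone marrow, and they give no allele, age, sex, strain background or pooling of animals, nor whether each library is a separate mouse. The p-values therefore describe the variation among these 6 libraries, which may be technical.

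One-carbon metabolism carries single carbon units, mostly taken from serine, on the cofactor tetrahydrofolate. These units supply carbon atoms of the purine ring and the methyl group of thymidylate, and through the methionine cycle they feed the methylation of DNA, RNA and histones. The purine ring is built on phosphoribosyl pyrophosphate (PRPP), while the pyrimidine ring is formed before it is joined to PRPP. Both take long enzyme chains that dividing cells keep at high levels, while salvage enzymes recover bases and nucleosides that are already formed.

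Total counts per library ran between 25993971 and 28743672. Hdac6 was at 9.62, 7.69 and 11.3 CPM (the count as a share of the library total after TMM scaling, in the usual CPM unit) in KO replicates 1, 2 and 3, against 68.0, 58.2 and 54.3 CPM in WT replicates 1, 2 and 3. Its log2 fold change, KO over WT, was -2.66 (SE 0.19, adjusted p = 0.000594 by the quasi-likelihood test of edgeR), and it was the only gene of 12875 tested that passed an adjusted p of 0.05. The gate markers Kit and Ly6a, which encodes Sca-1, stood at 725 to 1082 and 82.1 to 119 CPM in KO libraries, and at 1127 to 1367 and 60.3 to 68.7 CPM in WT libraries. DESeq2 called Kit lower and Ly6a higher in KO, and edgeR called neither. KO replicate 3 stood closer to WT than the other KO libraries did. Of all 15 library pairs, its counts differed least from those of WT replicate 3, with a chi-square of 25.8 per degree of freedom. Its value against KO replicates 1 and 2 was 58.5 and 53.9. KO replicates 1 and 2 also differed from each other, at 45.5, more than any WT pair did (35.15 to 39.29). The KO libraries were therefore not a close group. Values without KO replicate 3 are given beside the genes that turn on it, and as counts for the members as a whole. Leaving out the KO library nearest to WT tends to widen the difference between the groups. These values therefore describe the weight of that library and test nothing.

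Promoter sequences of 300 bases, of which 250 precede the transcription start, were found in RefSeq (build GRCm38.p6) for 29 of the 31 members. Paics and Ppat, which carry out steps of the same purine chain, lie on opposite strands of chromosome 5 with starts 276 bases apart, and each is transcribed across the start of the other, so that their 5′ ends overlap. Both are shown with Mthfd2 and Shmt2, the mitochondrial folate enzymes described below, and with Atic, which closes the purine ring. Capitals mark 3 motifs searched on both strands: CACGTG, the E-box bound by MYC; TGATGNAA, the core of the element bound by ATF4; and the palindromic NRF1 site, with its middle base left free. Mthfd2 held none of them.

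Mthfd2, chr6:83317555-83317854, minus strand: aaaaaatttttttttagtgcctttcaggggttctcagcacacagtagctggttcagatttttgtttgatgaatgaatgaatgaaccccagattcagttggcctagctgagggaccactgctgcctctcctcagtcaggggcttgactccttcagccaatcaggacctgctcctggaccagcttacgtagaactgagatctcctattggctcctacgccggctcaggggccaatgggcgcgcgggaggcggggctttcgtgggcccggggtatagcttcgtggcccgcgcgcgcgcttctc
Shmt2, chr10:127522395-127522694, minus strand: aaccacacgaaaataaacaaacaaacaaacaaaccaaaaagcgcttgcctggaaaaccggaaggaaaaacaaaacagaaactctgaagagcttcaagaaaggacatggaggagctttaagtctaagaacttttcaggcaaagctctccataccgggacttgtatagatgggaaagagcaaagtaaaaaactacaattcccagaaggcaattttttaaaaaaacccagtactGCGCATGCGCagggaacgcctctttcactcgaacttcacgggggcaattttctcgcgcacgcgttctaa
Atic, chr1:71556906-71557205, plus strand: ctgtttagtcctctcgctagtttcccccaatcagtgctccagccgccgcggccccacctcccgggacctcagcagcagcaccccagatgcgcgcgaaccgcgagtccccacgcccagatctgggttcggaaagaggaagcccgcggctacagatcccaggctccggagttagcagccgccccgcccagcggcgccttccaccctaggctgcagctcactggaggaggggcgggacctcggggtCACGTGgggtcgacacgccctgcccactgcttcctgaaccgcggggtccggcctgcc
Paics, chr5:76951052-76951351, plus strand: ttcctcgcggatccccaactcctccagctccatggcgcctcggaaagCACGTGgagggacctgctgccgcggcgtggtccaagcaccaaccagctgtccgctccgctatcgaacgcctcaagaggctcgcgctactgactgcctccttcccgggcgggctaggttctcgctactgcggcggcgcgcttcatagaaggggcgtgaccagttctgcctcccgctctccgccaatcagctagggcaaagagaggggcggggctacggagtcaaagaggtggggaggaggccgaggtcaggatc
Ppat, chr5:76951529-76951828, minus strand: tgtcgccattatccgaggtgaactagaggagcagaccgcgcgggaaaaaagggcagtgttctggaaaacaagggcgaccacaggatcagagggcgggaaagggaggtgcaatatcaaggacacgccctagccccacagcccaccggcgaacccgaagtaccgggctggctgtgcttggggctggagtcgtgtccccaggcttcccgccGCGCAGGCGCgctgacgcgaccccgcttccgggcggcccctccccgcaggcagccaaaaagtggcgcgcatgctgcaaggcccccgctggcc

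The E-box was present in promoters of 4 of the 29 members (Atic, Impdh2, Nme1 and Paics), against 11.6% of the tested genes with a promoter entry. The NRF1 site was present in 3 members (Ctps, Ppat and Shmt2), against 11.2% of tested genes. TGATGNAA was present only in Prps1 among the members, against 2.86% of tested genes. None of the 5 promoters shown held more than 1 of the motifs, and the shares among the members were close to those of all tested genes.

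Exons of 13 members overlap another annotated gene in GENCODE M21, 10 of them a gene on the opposite strand. Among these are Shmt1 with Smcr8, Shmt2 with Ndufa4l2, Impdh2 with Ndufaf3, Psph with Cct6a, and Paics with Ppat. No strand setting or treatment of shared reads is stated for the counts, so for these 13 members reads from the overlapping stretch cannot be told apart, and their values carry that limit throughout.

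Most members lay above WT in KO cells, with small differences that were widest in KO replicates 1 and 2 and mostly absent in KO replicate 3. All 31 members passed the filter on low counts, with at least 797 counts in every library. Of these, 29 had a log2 fold change above 0, against 49.5% of all tested genes, and 2 (Ctps2 and Mat2a) had one below 0, against 50.5%. The median over the members was 0.21, against -0.0034 over all tested genes. The members were chosen with earlier results of these data known, so these counts describe them and test nothing. By edgeR 0 members passed an adjusted p of 0.05 on the higher side and 0 on the lower side, where the background over all genes was 0% and 0.00777%, and DESeq2 also called 0 members, against 0.897% of its genes called higher and 0.456% called lower. Before adjustment, 7 higher members had a p under 0.05 (Mthfd2, Shmt2, Gmps, Paics, Nme2, Cad and Adsl), with 7.24% of all genes as background, as did 1 lower member, Ctps2, with a background of 6.15%. The 7 fell to 3 with library size alone as scaling, and to 1 (Mthfd2) in the authors' FPKM values, settings whose shares over all genes are not given. Of the 7, 0 were left without WT replicate 1 (background 5.63%) or without KO replicate 1 (background 4.26%).

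**Figure D1:**
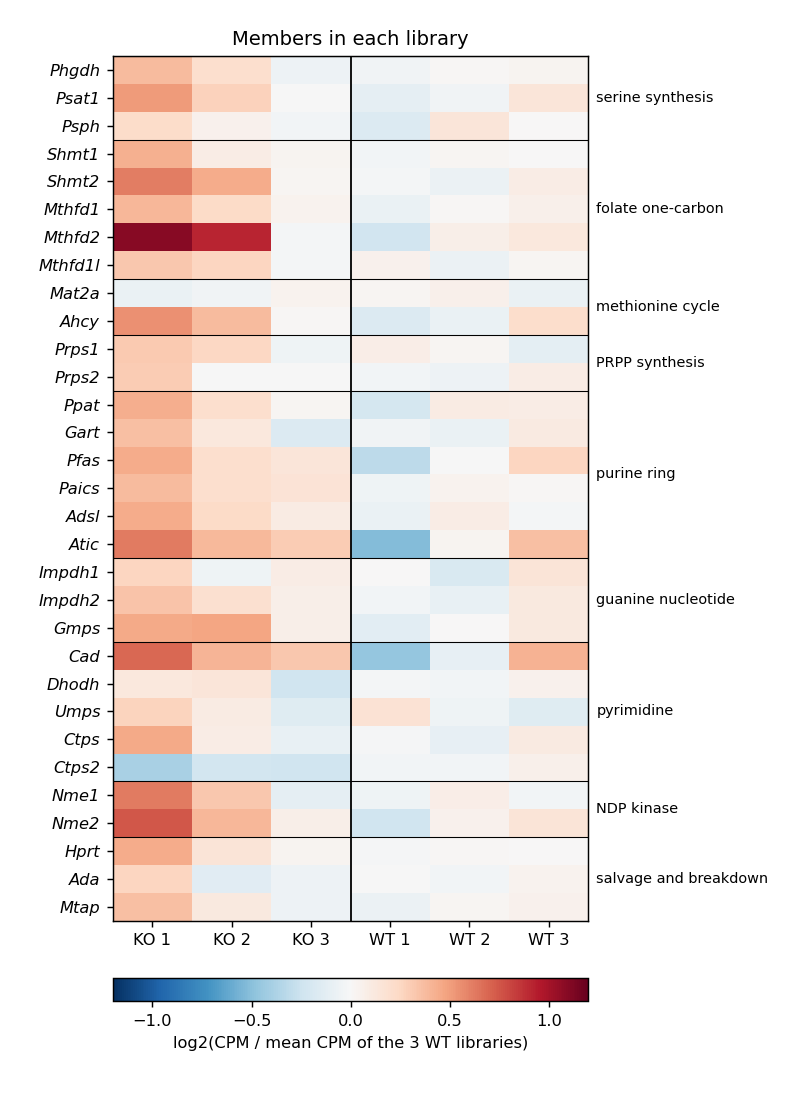
Colour gives the log2 ratio of each library's TMM-normalised CPM to the mean of the 3 WT libraries, for the 31 members (rows, grouped by role) in the KO and WT libraries (columns). KO replicate 1 is the highest library in 27 rows, Mthfd2 reaches 2.14 times the WT mean there, and Ctps2 is below the WT mean in all 3 KO libraries.

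Relative to the WT mean of each gene, the median member stood at 1.32 in KO replicate 1, at 1.15 in KO replicate 2 and at 1.01 in KO replicate 3, against 0.972, 1.00 and 1.05 in WT replicates 1, 2 and 3. KO replicate 1 was the highest of all 6 libraries for 27 of the 31 members, against 22.8% of all tested genes, and still for 25 of them with library size alone as scaling (16% of genes). WT replicate 1 was the lowest of all 6 libraries for 16 of the 31 members, against 20.1% of all tested genes. In 21 members KO replicate 3 fell between the lowest and the highest WT library, against 56% of all genes. The coefficient of variation was larger within KO than within WT for 25 of the 31 members, against 47.2% of all tested genes. Its median over the members was 14.4% in KO and 6.93% in WT, while over all tested genes the medians were 14% in KO and 15.1% in WT. In 4 members (Shmt1, Paics, Adsl and Hprt) all KO libraries lay above all WT libraries, with a background of 8.86%, and in 1 member, Ctps2, all lay below, with a background of 9.7%. With library size alone, with upper-quartile scaling or in FPKM, Paics was the only member left of these 4. The shares over all genes in these settings are not given, so this count cannot be read against a background. Each of these 5 differences had an exact two-sided permutation p of 0.1, the smallest that 3 against 3 libraries allow. Groups that do not overlap always give this p, so it restates the lack of overlap and tests nothing further.

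**Figure D2:**
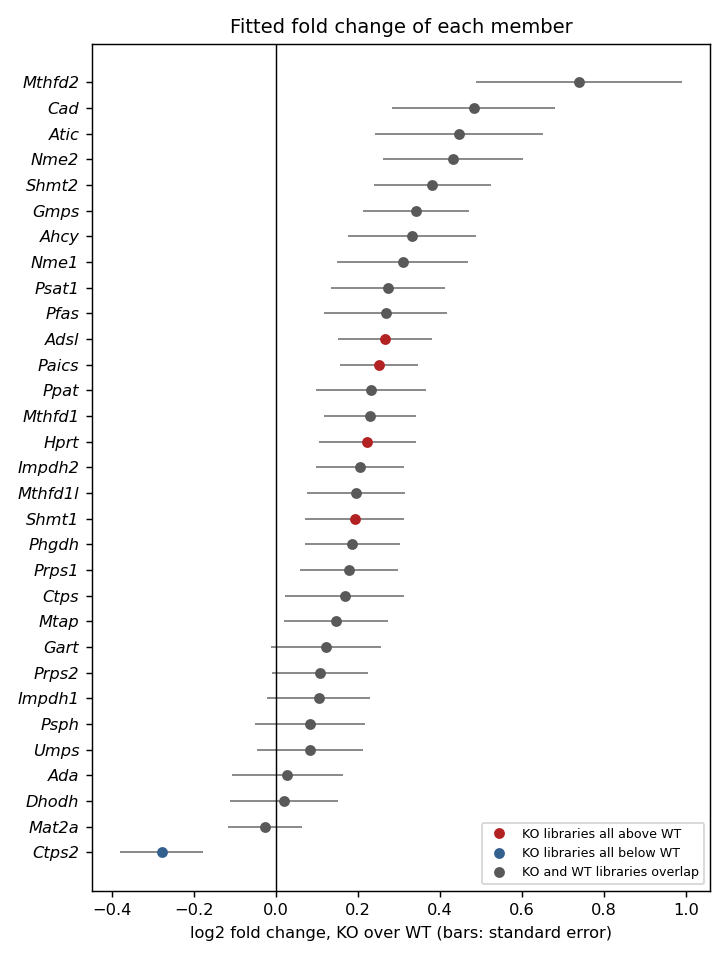
Each point is the fitted log2 fold change of a member, KO over WT, with its standard error as the bar, and colour shows whether the 3 KO and 3 WT libraries overlap. The points run between -0.28 for Ctps2 and 0.74 for Mthfd2, 29 of 31 lie right of 0, and none passed an adjusted p of 0.05.

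Serine synthesis branches from glycolysis in 3 steps. Phgdh, the dehydrogenase that commits 3-phosphoglycerate to serine, was at 1061, 935 and 779 CPM in KO replicates 1, 2 and 3, against 790, 818 and 829 CPM in WT. KO replicates 1 and 2 lay above all WT libraries and KO replicate 3 below them, and the log2 fold change of 0.19 (SE 0.12) did not pass the test (adjusted p = 0.494 by edgeR). Without KO replicate 3 it was 0.30 (SE 0.09, adjusted p = 0.112 by edgeR), and without KO replicate 1 it was 0.08 (SE 0.10). Psat1, the aminotransferase of the second step, stood at 285, 242 and 199 CPM in KO and at 185, 194 and 221 CPM in WT, so that KO replicates 1 and 2 again lay above all WT libraries while KO replicate 3 lay among them. Its log2 fold change was 0.27 (SE 0.14), 0.40 (SE 0.12) without KO replicate 3 and 0.14 (SE 0.13) without KO replicate 1. Psph, the phosphatase that releases serine, averaged 57.6 ± 5.37 CPM in KO and 54.4 ± 5.66 CPM in WT (SD, n = 3 each), and its libraries were mixed.

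The folate enzymes held the member with the widest difference, the mitochondrial enzyme Mthfd2. Mthfd2 oxidises methylene-tetrahydrofolate in mitochondria and is known for its high level in dividing and embryonic cells. It measured 71.6, 63.2 and 32.9 CPM in KO replicates 1, 2 and 3, against 28.6, 35.2 and 36.6 CPM in WT. Both of the first KO libraries were above every WT library, and KO replicate 3 was inside the WT range. The log2 fold change was 0.74 (SE 0.25, adjusted p = 0.31 by edgeR). Without KO replicate 3 it was 1.01 (SE 0.16) and passed (adjusted p = 0.0489 by edgeR), in a fit that called 0.229% of all genes higher. Mthfd2 was the only member to pass in any fit that was run. KO replicate 3 was the KO library at the WT level, so leaving it out had to widen the difference, and the pass is no support. Leaving out KO replicate 1 gave 0.52 (SE 0.26, adjusted p = 0.672).

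Shmt2, which takes the one-carbon unit from serine in mitochondria, followed the same order, at 441, 392.4 and 292 CPM in KO against 283, 275 and 305 CPM in WT. Its log2 fold change was 0.38 (SE 0.14, adjusted p = 0.329 by edgeR), and 0.53 (SE 0.10, adjusted p = 0.0537 by edgeR) without KO replicate 3. Leaving out KO replicate 1 gave 0.25 for Shmt2 (SE 0.14, adjusted p = 0.690 by edgeR). Shmt1, its cytosolic counterpart, measured 225, 179 and 171 CPM in KO and 164, 171 and 168 CPM in WT. All KO libraries of Shmt1 were above all WT libraries, but KO replicate 3 exceeded WT replicate 2 by less than 1 CPM (171.10 against 170.75 CPM). Mthfd1, the trifunctional cytosolic enzyme, and Mthfd1l, the mitochondrial enzyme that releases formate, had log2 fold changes of 0.23 (SE 0.11) and 0.19 (SE 0.12), with overlapping groups. Without KO replicate 3 these were 0.32 for Mthfd1 and 0.29 for Mthfd1l, and the groups no longer overlapped. With KO replicate 1 left out they were 0.14 and 0.13, and the groups overlapped.

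The methionine cycle was represented by Mat2a and Ahcy. Mat2a, which makes the methyl donor S-adenosylmethionine, was among the least variable members, at 885, 903 and 958 CPM in KO and 947, 970 and 880 CPM in WT. Its log2 fold change was -0.03 (SE 0.09), and it was 0.0044 without WT replicate 2. Ahcy, which clears S-adenosylhomocysteine after methyl transfer, measured 168, 150 and 116 CPM in KO and 103, 109 and 133 CPM in WT, and its fitted log2 difference was 0.33 (SE 0.16, adjusted p = 0.38 by edgeR). Here KO replicates 1 and 2 were the highest libraries and KO replicate 3 was below WT replicate 3. Without KO replicate 3 the value for Ahcy was 0.47 (SE 0.14, adjusted p = 0.114 by edgeR), and without KO replicate 1 it was 0.21 (SE 0.16).

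PRPP, the sugar phosphate that both purine and pyrimidine synthesis draw on, is made by Prps1 and Prps2. Prps1 averaged 256 ± 32.7 CPM in KO and 227 ± 15.7 CPM in WT, and Prps2 176 ± 22.7 CPM in KO and 164 ± 9.49 CPM in WT (SD, n = 3 each). Their groups overlapped, and without KO replicate 1 the log2 fold change of Prps2 was -0.0024. Both are X-linked, as are Hprt, Ctps2 and Hdac6 itself. The Y-linked transcript Ddx3y was at 82.2 to 97.6 CPM in KO and 76.3 to 93.3 CPM in WT, so RNA of male mice was present in each library.

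All 6 genes of the purine ring, which together build inosine monophosphate from PRPP, had log2 fold changes above 0, between 0.12 and 0.45. Paics, a bifunctional enzyme of the middle of the chain, measured 831, 732 and 712 CPM in KO replicates 1, 2 and 3, against 615, 654 and 642 CPM in WT. The groups did not overlap, under any of the scalings tried, and the log2 fold change was 0.25 (SE 0.10, adjusted p = 0.331 by edgeR). Ppat, the amidotransferase of the committed step, whose 5′ end overlaps that of Paics, measured 255, 216 and 190 CPM in KO and 163, 201 and 199 CPM in WT. Its KO replicate 3 lay within the WT range. The counts of both genes were not whole numbers in any library, and the limit on overlapping genes given above applies to this pair.

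Adsl, which acts both in this chain and on the way to adenine nucleotides, was at 325, 279 and 254.1 CPM in KO and at 225, 253.7 and 235 CPM in WT. The groups did not overlap, by a margin of less than 1 CPM, and the log2 fold change was 0.27 (SE 0.11, adjusted p = 0.36 by edgeR). Atic, the last enzyme of the ring, measured 71.2, 60.7 and 56.9 CPM in KO and 32.3, 47.1 and 59.1 CPM in WT, and its fitted log2 difference was 0.45 (SE 0.20, adjusted p = 0.375 by edgeR). WT replicate 1 was the lowest library of Atic, and without it the log2 fold change was 0.25 (SE 0.16). Pfas, the enzyme of an early step of the chain, had the same low WT replicate 1, at 135 CPM against 168 and 201 CPM in the other WT libraries, and 228, 192 and 186 CPM in KO. Gart, a trifunctional enzyme that uses formyl-tetrahydrofolate, measured 460, 391 and 319 CPM in KO and 348, 339 and 387 CPM in WT. KO replicate 3 was the lowest of the 6 libraries for Gart, and its log2 fold change of 0.12 was 0.25 without KO replicate 3 and -0.01 without KO replicate 1.

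Among the guanine nucleotide enzymes, Gmps, which makes GMP, measured 234, 237 and 180 CPM in KO, against 157, 172 and 185 CPM in WT. KO replicates 1 and 2 were above every WT library and KO replicate 3 was not. The fitted log2 difference was 0.34 (SE 0.13, adjusted p = 0.33 by edgeR), and 0.46 (SE 0.11, adjusted p = 0.0769 by edgeR) without KO replicate 3. Leaving out KO replicate 1 gave 0.29 for Gmps (SE 0.14, adjusted p = 0.672 by edgeR). Impdh2, the dominant form of the rate-limiting enzyme of guanine synthesis in dividing cells, averaged 348 ± 32.9 CPM in KO and 302 ± 22.7 CPM in WT (SD, n = 3 each). Impdh1, the other form, averaged 172 ± 18.2 CPM in KO and 160 ± 18.6 CPM in WT, and its groups were mixed.

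The pyrimidine enzymes differed among themselves in size and direction. Cad, whose protein carries out the initial 3 steps of pyrimidine synthesis, measured 245, 201 and 189 CPM in KO, against 110, 142 and 203 CPM in WT. WT replicate 3 lay above 2 of the 3 KO libraries, and the log2 fold change of 0.48 (SE 0.20, adjusted p = 0.349 by edgeR) was 0.30 (SE 0.18) without WT replicate 1. Dhodh, the mitochondrial enzyme of the middle step, averaged 78.8 ± 11.4 CPM in KO and 77.7 ± 2.67 CPM in WT, and Umps, which closes the chain to UMP, 326 ± 45.7 CPM in KO and 308 ± 36.4 CPM in WT (SD, n = 3 each). The direction of Dhodh changed with the scaling.

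The CTP synthases Ctps and Ctps2, which turn UTP into CTP, lay on opposite sides. Ctps2 measured 138, 155 and 153 CPM in KO, against 176, 177 and 189 CPM in WT, and every KO library was below every WT library. Its log2 fold change was -0.28 (SE 0.10, adjusted p = 0.318 by edgeR), and it lay between -0.31 and -0.23 when any 1 library was left out. Ctps measured 153, 119 and 105 CPM in KO and 111, 105 and 121 CPM in WT, so that its groups overlapped.

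**Figure D3:**
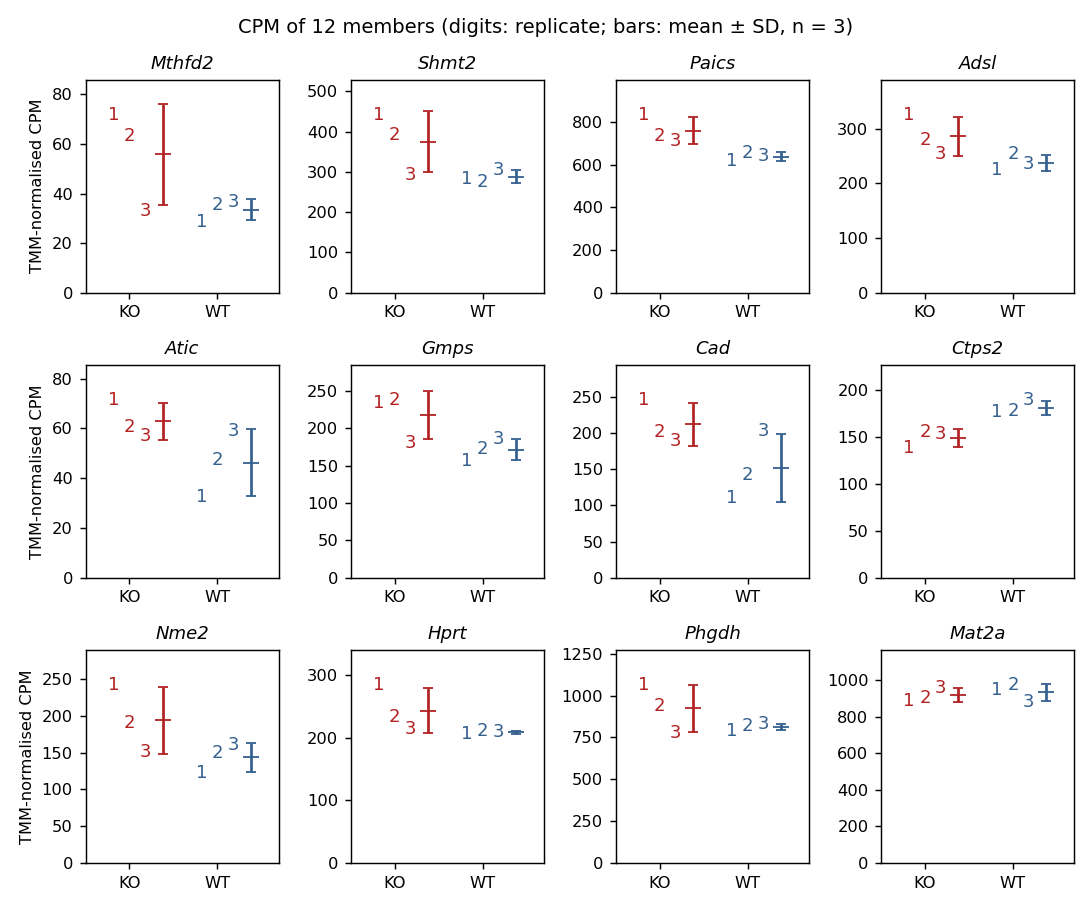
TMM-normalised CPM of 12 members, with each digit a library at its replicate number, KO left of WT, and bars giving the mean ± SD of 3 libraries. In Mthfd2, Shmt2, Gmps and Nme2 KO replicates 1 and 2 lie above KO replicate 3, which sits among or next to the WT libraries, while the groups of Paics, Adsl, Hprt and Ctps2 do not overlap.

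Nucleoside diphosphate kinases pass phosphate from ATP to other nucleotides. Nme1 measured 442, 360 and 267 CPM in KO and 278, 304 and 281 CPM in WT, and Nme2 241, 190 and 151 CPM in KO and 122, 150 and 160 CPM in WT. Both had KO replicate 1 highest and KO replicate 3 beside the WT libraries, with log2 fold changes of 0.31 (SE 0.16) for Nme1 and 0.43 (SE 0.17) for Nme2. Without KO replicate 3 these were 0.48 (SE 0.11) and 0.58 (SE 0.15), and neither gene's groups overlapped. With KO replicate 1 left out they were 0.13 (SE 0.14) and 0.25 (SE 0.15), and the groups of both overlapped. Nme1 and Nme2 are adjacent close paralogs that share exons with the read-through gene Gm20390, and the counting of shared reads is not stated, so their separate levels are uncertain.

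Of the salvage and breakdown enzymes, Hprt, which recovers hypoxanthine and guanine, was at 284, 233 and 214 CPM in KO, against 206, 211 and 209 CPM in WT. Its groups did not overlap, with a fitted log2 difference of 0.22 (SE 0.12, adjusted p = 0.426 by edgeR), and 0.10 (SE 0.10) without KO replicate 1. Ada, which deaminates adenosine, averaged 60.1 ± 8.91 CPM in KO and 59.0 ± 1.62 CPM in WT, and Mtap, which recovers adenine and methionine from methylthioadenosine, 116 ± 17.0 CPM in KO and 105 ± 4.52 CPM in WT (SD, n = 3 each). The direction of Ada changed with the scaling.

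The weight of KO replicate 3 was seen across the members. Without it, 21 members had KO libraries that all lay above WT, 17 of them genes whose groups otherwise overlapped, with a background of 20.3% over all genes, 18 had an unadjusted p under 0.05 on the higher side (background 10.9%), and the median log2 fold change was 0.30. On the lower side Ctps2 alone lay wholly below WT (background 20%) and alone had an unadjusted p under 0.05 (background 9.46%). In this fit 29 members were above 0 and 2 below, against 48% and 52% of all genes, and 0 were called lower, against 0.107%. Without KO replicate 1 in its place, 4 members lay wholly above WT (background 12.3%), 2 (Ctps2 and Ada) lay wholly below (background 12.4%), and the median was 0.12. In that fit 0 members had an unadjusted p under 0.05 by edgeR on the higher side (background 4.26%) or the lower side (background 3.32%). Of the members, 24 were above 0 and 7 below, against 49.5% and 50.5% of all genes.

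Levels between genes were compared in the authors' FPKM values, which are scaled by gene length. All members were well expressed, each above at least 71.7% of the genes in the table. Phgdh was the highest member, at 611, 544 and 476 FPKM in KO and 490, 514 and 506 FPKM in WT, higher than 99.1% of genes. Nme1 averaged 446 ± 97.9 FPKM in KO and 379 ± 25.2 FPKM in WT, Mat2a 330 ± 25.2 FPKM in KO and 349 ± 22.9 FPKM in WT, and Paics 384 ± 24.3 FPKM in KO and 339 ± 12.3 FPKM in WT (SD, n = 3 each). In WT, Nme1 and Mat2a overlapped, as did Mat2a and Paics. Mthfd2 was the lowest member in WT, at 18.5 ± 2.31 FPKM, and averaged 29.2 ± 9.93 FPKM in KO. Atic and Cad were the next lowest in WT, with values within the spread of one another.

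**Figure D4:**
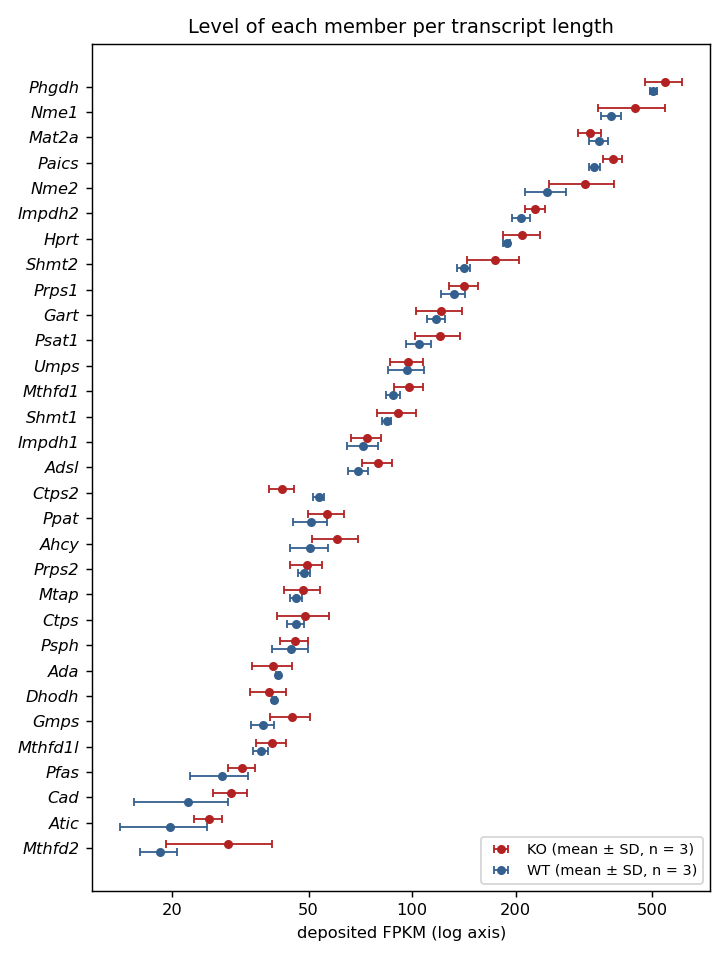
Points give the mean deposited FPKM of each member and bars the SD of 3 libraries, on a logarithmic axis, for KO (red) and WT (blue), ordered by the WT mean. Levels span 18.5 to 503 FPKM in WT, and the KO and WT points of a gene lie close together compared with this span.

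Enzymes that carry out the same step with different isoforms or in different compartments were set against each other as FPKM ratios within each library, for 7 pairs picked after the values were seen. The ratio of Ctps to Ctps2 was 1.53, 1.06 and 0.948 in KO and 0.865, 0.828 and 0.873 in WT, and was the only one whose groups did not overlap. Its exact two-sided permutation p was 0.1, and 0.525 after Benjamini-Hochberg adjustment over the 7 pairs. Groups of 3 that do not overlap always give that unadjusted p, so it restates the lack of overlap. Because the pairs were picked after the values were seen, neither p is support for a difference. The ratio of mitochondrial Mthfd2 to cytosolic Mthfd1 was 0.341 and 0.339 in KO replicates 1 and 2 and 0.201 in KO replicate 3, against 0.189 to 0.220 in WT. For Shmt2 over Shmt1 it was 1.92, 2.14 and 1.68 in KO and 1.69, 1.57 and 1.78 in WT, with overlapping groups. The ratios of Mthfd1l to Mthfd1, Prps1 to Prps2, Impdh2 to Impdh1 and Nme1 to Nme2 overlapped as well.

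Other genes of the pathways were taken from a list of 94 further symbols of folate, methionine and nucleotide metabolism, of which 89 were in the table and 85 were tested. By edgeR 0 passed in either direction, while DESeq2 called 1 higher (Uck2) and 0 lower. Before adjustment, 13 of the 85 had a p under 0.05 on the higher side and 1 on the lower side, against 7.24% and 6.15% of all tested genes. A log2 fold change above 0 was found for 57 of the 85, against 49.5%, with a median of 0.10. In 15 genes all KO libraries lay above WT, against 8.86%, and in 4 all lay below, against 9.7%. Rrm2, a subunit of ribonucleotide reductase, which makes deoxynucleotides, measured 265, 259 and 179 CPM in KO, against 151, 161 and 178 CPM in WT. Its log2 fold change was 0.52 (SE 0.15, adjusted p = 0.298 by edgeR), and without KO replicate 3 it was 0.68 and passed. That fit called 0.229% of all genes higher. KO replicate 3 was the lowest KO library of Rrm2, so leaving it out had to widen the difference, and the pass is no support. Slc25a32, the carrier that brings folate into mitochondria, measured 46.6, 39.5 and 39.4 CPM in KO and 31.1, 23.4 and 29.9 CPM in WT, so that here KO replicate 3 stood with the other KO libraries.

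Uck2, a uridine and cytidine kinase of pyrimidine salvage, was at 229, 228 and 161 CPM in KO and 112, 100 and 166 CPM in WT. Its fitted log2 difference of 0.71 (SE 0.20) missed the threshold in edgeR (adjusted p = 0.298) and was called by DESeq2 (0.72, adjusted p = 0.0392). The adenylate kinase gene Ak6 had a log2 fold change of 0.56 (SE 0.15), with KO libraries wholly above WT. On the lower side, Aldh1l1, which oxidises formyl-tetrahydrofolate, measured 27.0, 23.4 and 26.9 CPM in KO and 37.6, 38.4 and 28.9 CPM in WT, and its groups did not overlap. Dguok, a mitochondrial deoxyguanosine kinase (-0.25), the nucleoside transporter gene Slc29a2 (-0.46) and Sfxn3, a mitochondrial carrier of the sideroflexin family (-0.24), completed the 4 lower genes with the smallest p, with edgeR adjusted p-values of 0.385, 0.441 and 0.464, against 0.329 for Aldh1l1.

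Known regulators of these pathways were read beside them. Atf4, which encodes a transcription factor of serine and folate enzymes, measured 120, 108 and 118 CPM in KO, against 82.4, 96.5 and 93.1 CPM in WT. Its groups did not overlap, and KO replicate 3 stood with the other KO libraries, unlike in most members. The log2 fold change was 0.35 (SE 0.11, adjusted p = 0.307 by edgeR). Myc, whose protein binds many nucleotide synthesis genes, measured 1210, 1253 and 1105 CPM in KO and 994, 964 and 1120 CPM in WT, with overlapping groups and a log2 fold change of 0.21 (SE 0.10). Of the 7 regulators, 1 (Atf4) had an unadjusted p under 0.05 and 0 passed.

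**Figure D5:**
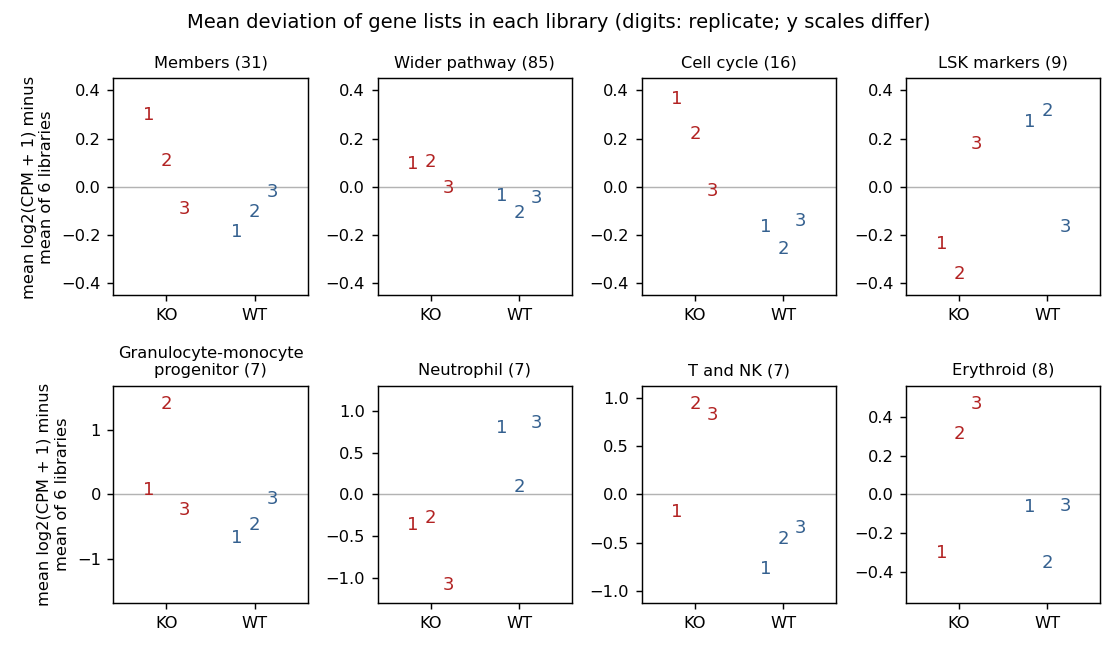
Each digit is a library at its replicate number, KO left of WT, placed at the mean over a gene list of log2(CPM + 1) minus its mean over 6 libraries, with the number of tested genes in brackets and y scales that differ between panels. Among the KO libraries, replicate 1 is highest and replicate 3 lowest in the panels of the members and of the cell cycle genes.

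Cell cycle genes and markers of other cell types also stood at different levels in KO and WT libraries. Of 16 cell cycle genes, 15 had a log2 fold change above 0, against 49.5% of all tested genes, and 11 had KO libraries wholly above WT, against 8.86%. The gene below 0 was Mki67 (-0.03), at 243, 214 and 201 CPM in KO and 234, 212 and 226 CPM in WT. By edgeR 0 of the 16 genes passed, and 9 had an unadjusted p under 0.05 on the higher side, against 7.24%. Their summed level was 8268, 7486 and 6730 CPM in KO replicates 1, 2 and 3 and 6101 to 6605 CPM in WT, while the summed level of the members was 9328, 8259 and 7345 CPM in KO and 7045 to 7517 CPM in WT. Ccne1, which encodes cyclin E1, had a log2 fold change of 1.49 (SE 0.28) and the mitotic kinase gene Plk1 0.58 (SE 0.14), both called by DESeq2. The part of cell cycle stage in the values of the members was not tested. In bulk RNA, fewer cells of a type and less RNA per cell cannot be told apart.

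LSK markers (9 genes) summed to 3173 to 4254 CPM in KO and 4130 to 4737 CPM in WT, and KO replicates 1 and 2, the libraries with the highest members, had the lowest sums. Granulocyte-monocyte progenitor genes (7) summed to 6712, 17175 and 5597 CPM in KO replicates 1, 2 and 3 and 4939 to 7648 CPM in WT, a sum that Mpo dominates. KO replicate 2 lay above every WT library for all 7 of these genes, KO replicate 1 for 4 of them (Prtn3, Ctsg, Ms4a3 and Ly86) and KO replicate 3 for 1 (Ly86). Prtn3, for example, measured 486, 834 and 275 CPM in KO and 215, 239 and 317 CPM in WT. Neutrophil genes (7 of 8 tested) summed to 11.5 to 25.5 CPM in KO and 37.9 to 100.05 CPM in WT. T and natural killer genes (7 of 10) summed to 25.5, 63.0 and 71.4 CPM in KO replicates 1, 2 and 3 and 13.4 to 22.8 CPM in WT. In KO, Il2rb was the largest part of that sum, at 8.78, 23.6 and 33.3 CPM. Of these 7 genes, 6 had a log2 fold change above 0 and 1, Cd8a, had one below (-0.03). B cell genes (5 of 7) summed to 64.9 to 91.6 CPM in KO and 55.1 to 81.7 CPM in WT, a sum that Cd79b dominates. Erythroid genes (8 of 8) summed to 255 to 445 CPM in KO and 205 to 254 CPM in WT, a sum carried by Car1 and Tfrc, and their directions were mixed: log2 fold changes were 0.86 for Car1 and 0.89 for Tfrc, but -0.88 for Hba-a1 and -0.77 for Hbb-bt, for which every KO library lay below every WT library. Cd3d, Cd3e and Cd3g of T cells, the B cell genes Ms4a1 and Pax5 and the neutrophil gene Ly6g did not pass the filter on low counts. Prf1 was at 0 in WT replicates 1 and 2, and Retnlg in WT replicate 3. Whether the share of such cells had a part in the members' values was not tested.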

How the data were processed

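Per the labels' protocols, RNA was extracted with Trizol for Illumina libraries. GRCm39 is the build in the submitters' processing notes, which list featureCounts 2.0.3, HISAT2 2.2.1, DESeq2 and SAMtools 1.13 without roles. For annotation, strand setting and treatment of shared reads, nothing is given in the sources used here. Per the file headers, the authors deposited 1 table that holds, for each gene and library, an estimated count and FPKM. Of the estimated counts, 19.6% to 20.9% per library were not whole and were rounded, and 8 members had such counts.

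KO was compared with WT over all genes with edgeR 4.0.16 and its quasi-likelihood test (R 4.3.3, robust dispersion, legacy option on) after filterByExpr (minimum count 10) and TMM scaling (factors 0.952 to 1.03), with Benjamini-Hochberg adjustment over 12875 genes and a threshold of 0.05. SE is the log2 fold change over the root of F. Total counts were 25993971 to 28743672, and the floor of 3 counts behind a listed 0 was 0.106 to 0.114 CPM, counting error only. Chi-square per degree of freedom was 25.8 or more for every library pair, so each counted as 1 sample. Alternatives were other scalings, filters and fits, DESeq2 1.42.0, limma 3.58.1 on voom weights and on log2(FPKM + 1), a replicate block, and each library left out. The tests were tested on simulated counts. Exon overlaps and chromosomes come from GENCODE M21 and RefSeq of GRCm38, used for names only, and promoters from RefSeq of GRCm38.p6. Named genes were all members, the 4 further pathway genes per direction and the 2 genes of the regulator and cell cycle lists with the smallest p, and Hdac6. The members, lists and tests were chosen with earlier results of these data known.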

Additional observations from a re-analysis of the deposited data

How the results depend on the processing

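Directions of the members were stable under most alternatives, while counts at an unadjusted p under 0.05 and counts of groups that do not overlap moved. Of the members, 0 passed the adjusted threshold in each alternative fit that kept all libraries. Higher members at an unadjusted p under 0.05 numbered 3 with library size alone, 12 with limma-voom, 1 with limma on log2(FPKM + 1) and 1 with the replicate block, against 7. Higher members with groups that do not overlap numbered 1 with upper-quartile scaling, 1 with library size alone and 1 in FPKM, against 4. For the further pathway genes, higher ones at that p numbered 8 with upper-quartile scaling, 7 with library size alone, 8 in FPKM and 8 with the replicate block, against 13; lower ones numbered 2, 2 and 2 under those scalings and 3 with limma-voom, against 1, and DESeq2 called 1 higher. Over all genes DESeq2 called 120 higher and 61 lower, against 0 and 1. For these alternatives the shares of all genes at an unadjusted p under 0.05, or with groups that do not overlap, are not given. Their counts therefore cannot be told apart from fits that pass more or fewer genes throughout.

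Leaving out 1 library at a time gave 0 to 1 members called higher, 0 to 18 higher and 0 to 1 lower members at an unadjusted p under 0.05, and 4 to 21 members wholly above and 1 to 2 wholly below WT. Over all genes the share wholly above WT ran between 11.5% and 20.3% in these fits and the share wholly below between 12% and 20%, and the share at an unadjusted p under 0.05 on the higher side between 3.55% and 10.9%. For the further pathway genes it gave 0 to 1 called higher, 7 to 22 higher and 0 to 3 lower at that p, and 17 to 33 wholly above and 6 to 7 wholly below WT. Over all genes 0 to 30 were called higher and 1 to 14 lower. The extremes came mostly without KO replicate 3, and 15 members lay wholly above WT without WT replicate 3, where 17.1% of all genes did. The members' median ran between 0.12 and 0.30. Fewer libraries per group make it easier for groups not to overlap; other causes were not tested.

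Log2 fold changes near 0 changed sign. Dhodh was -0.034 with upper-quartile scaling, -0.059 with library size alone and -0.055 in FPKM, and ran between -0.044 and 0.14 with 1 library left out. Ada was -0.024 with upper-quartile scaling, -0.048 with library size alone, -0.051 in FPKM and -0.013 with limma-voom, and ran between -0.098 and 0.11. Mat2a ran between -0.060 and 0.0044, Prps2 between -0.0024 and 0.16, Gart between -0.011 and 0.25 and Umps between -0.015 and 0.19.

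Replicate numbers are shared between the groups, but the deviations of KO and WT libraries with the same number correlated at 0.08, -0.07 and -0.19, and not every library correlated best with its own number, so the replicate block pairs libraries only by number. Under it 0 members passed, and 1 was higher at an unadjusted p under 0.05. Hdac6 passed under every alternative that was run. Every member had at least 797 counts in each library; how far counting error and the spread between libraries each limit the comparisons was not tested.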

Other observations

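Among the further pathway genes, 3 outside the naming rule were picked after their values were seen. Srm, which makes spermidine from decarboxylated S-adenosylmethionine, was at 330, 300 and 146 CPM in KO replicates 1, 2 and 3, against 151, 70.7 and 184 CPM in WT, with KO replicate 3 inside the WT range as in most of the nucleotide enzymes. Xdh, the purine-degrading xanthine dehydrogenase, was at 2.94, 26.4 and 9.28 CPM in KO and 4.13, 2.02 and 4.54 CPM in WT, so that KO replicate 2 stood far above the rest. Gda, the guanine deaminase, was at 7.93, 15.7 and 3.30 CPM in KO and 0.61, 3.36 and 4.997 CPM in WT, also highest in KO replicate 2, the library with the highest granulocyte-monocyte progenitor genes. None of the 3 passed the edgeR threshold.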
